A study of Homo sapiens with 6 samples.

Results

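The 10 genes described here encode heat shock proteins of the cytosol and of mitochondria: HSP90AA1, HSP90AB1, HSPA8, HSPA1A, HSPA1B, HSPH1, DNAJB1, HSPB1, HSPD1 and HSPE1. They were chosen by gene symbol, with earlier results of these data known. All 10 were found in every library, out of 17787 symbols listed in any file and 12555 genes tested. RNA came from A549, a human lung adenocarcinoma cell line, in 6 libraries. The 3 siNC libraries, whose genotype label is wild type, served as the control, and the 3 siFOXD3 libraries carry the name of a small interfering RNA against the forkhead transcription factor FOXD3. Both groups share the cell line and carry no other allele or agent in the labels. The labels give no dose, no time to harvest, no meaning of siNC and no origin of the replicates in separate cultures. All p-values therefore rest on a spread between libraries that may be technical.

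Heat shock proteins are chaperones that bind unfolded or partly folded proteins. In the cytosol, HSP70 proteins (HSPA8 and its heat-inducible relatives HSPA1A and HSPA1B) take substrates from HSP40 co-chaperones such as DNAJB1, release them with the help of exchange factors such as HSPH1, and pass many kinases and receptors on to HSP90 (HSP90AA1 and HSP90AB1). HSPB1 is a small heat shock protein that holds unfolded proteins without using ATP, and HSPD1 with its lid HSPE1 forms the folding chamber of the mitochondrial matrix. Heat shock factor HSF1 switches many of these genes on by binding heat shock elements, which are repeated GAA units in alternating orientation. Carcinoma lines are known for high levels of several of these chaperones.

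The promoters of the members are shown first, because many of these genes are known targets of HSF1. The sequences are RefSeq's on GRCh38.p14, which is not the build of the deposited values. Each is the 200 bases before a start site, 5′ to 3′ on the gene's strand, with matches to the 2-unit heat shock element in capitals. The 2-unit element was searched as GAANNTTC or TTCNNGAA, each of which reads the same on both strands. Overlapping matches were counted separately. Where RefSeq lists several starts, the one with the most matches is printed.
HSP90AA1, chr14:102087045-102087244, - strand: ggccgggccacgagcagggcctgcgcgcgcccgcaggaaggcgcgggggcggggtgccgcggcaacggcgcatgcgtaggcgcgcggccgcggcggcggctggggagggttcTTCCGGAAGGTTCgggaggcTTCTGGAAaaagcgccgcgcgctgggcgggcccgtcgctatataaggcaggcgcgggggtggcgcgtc
HSP90AB1, chr6:44247743-44247942, + strand: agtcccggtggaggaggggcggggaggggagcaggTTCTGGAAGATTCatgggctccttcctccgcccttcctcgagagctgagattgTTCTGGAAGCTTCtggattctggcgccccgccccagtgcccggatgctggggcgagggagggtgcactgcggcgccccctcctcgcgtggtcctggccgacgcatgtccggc
HSPA8, chr11:123062137-123062336, - strand: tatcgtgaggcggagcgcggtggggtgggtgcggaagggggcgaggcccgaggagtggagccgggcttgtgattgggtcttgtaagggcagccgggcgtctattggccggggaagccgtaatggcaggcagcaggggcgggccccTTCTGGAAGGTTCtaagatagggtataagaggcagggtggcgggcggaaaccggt
HSPA1A, chr6:31815343-31815542, + strand: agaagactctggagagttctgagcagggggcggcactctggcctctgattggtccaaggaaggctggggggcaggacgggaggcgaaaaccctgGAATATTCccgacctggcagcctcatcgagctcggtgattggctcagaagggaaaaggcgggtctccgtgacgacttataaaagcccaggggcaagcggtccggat
HSPA1B, chr6:31827538-31827737, + strand: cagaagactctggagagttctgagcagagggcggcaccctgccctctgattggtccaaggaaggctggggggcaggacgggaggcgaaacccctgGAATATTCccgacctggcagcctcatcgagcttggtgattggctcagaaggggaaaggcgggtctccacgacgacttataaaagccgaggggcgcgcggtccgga
DNAJB1, chr19:14518398-14518597, - strand: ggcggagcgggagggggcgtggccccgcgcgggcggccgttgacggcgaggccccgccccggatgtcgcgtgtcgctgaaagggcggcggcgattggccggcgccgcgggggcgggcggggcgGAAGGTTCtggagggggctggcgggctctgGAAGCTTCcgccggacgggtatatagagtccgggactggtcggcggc
HSPB1, chr7:76302473-76302672, + strand: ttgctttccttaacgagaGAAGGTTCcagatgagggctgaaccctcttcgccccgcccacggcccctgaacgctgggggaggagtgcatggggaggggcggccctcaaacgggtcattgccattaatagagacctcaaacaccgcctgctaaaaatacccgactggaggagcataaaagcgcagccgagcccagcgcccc
HSPH1, chr13:31162389-31162588, - strand: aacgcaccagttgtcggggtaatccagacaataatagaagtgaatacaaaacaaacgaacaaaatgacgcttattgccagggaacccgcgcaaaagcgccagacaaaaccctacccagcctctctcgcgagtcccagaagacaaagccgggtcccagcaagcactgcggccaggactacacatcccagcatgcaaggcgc
HSPD1 and HSPE1 lie head to head, and 104 bases separate their nearest RefSeq starts. That shared stretch is shown in the direction of HSPE1, with a GC box, the letters GGGCGG or their reverse complement CCGCCC, in capitals. A GC box is present in 45% of all promoter windows.
HSPD1 and HSPE1 shared stretch, chr2:197500275-197500378, + strand: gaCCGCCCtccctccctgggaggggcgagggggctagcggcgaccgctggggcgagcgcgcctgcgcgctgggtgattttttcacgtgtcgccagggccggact
A run of overlapping elements lies inside HSPD1, and the 30 bases around it are shown on the HSPD1 strand because they fall in no HSPE1 window. The first of the 30 bases lies 184 bases after the nearer HSPD1 start and 289 bases before the HSPE1 start. RefSeq lists a second HSPD1 start farther along, and the run lies before that start, within its window.
HSPD1 element, chr2:197500061-197500090, - strand: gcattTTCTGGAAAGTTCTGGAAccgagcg

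All 10 members matched the RefSeq table, with 16 windows of 300 bases (250 before to 50 after a start). A 2-unit element was present in 9 of the 16 windows and in at least 1 window of 8 of the 10 genes, against 16.2% of all symbols in the table and 13.5% of its 35116 windows. HSPH1 and HSPE1 were the 2 genes without a match in these windows. A 3-unit element, GAANNTTCNNGAA or TTCNNGAANNTTC, was present in a window of HSP90AA1, HSP90AB1, HSPA8 and HSPD1, 4 of the 10 genes, against 0.608% of all symbols. The HSPA1A and HSPA1B windows were identical at 92.6% of aligned positions, and the match starts 106 and 105 bases before their starts. These matches are letters in a window and say nothing about binding in these cells.

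**Figure D1:**
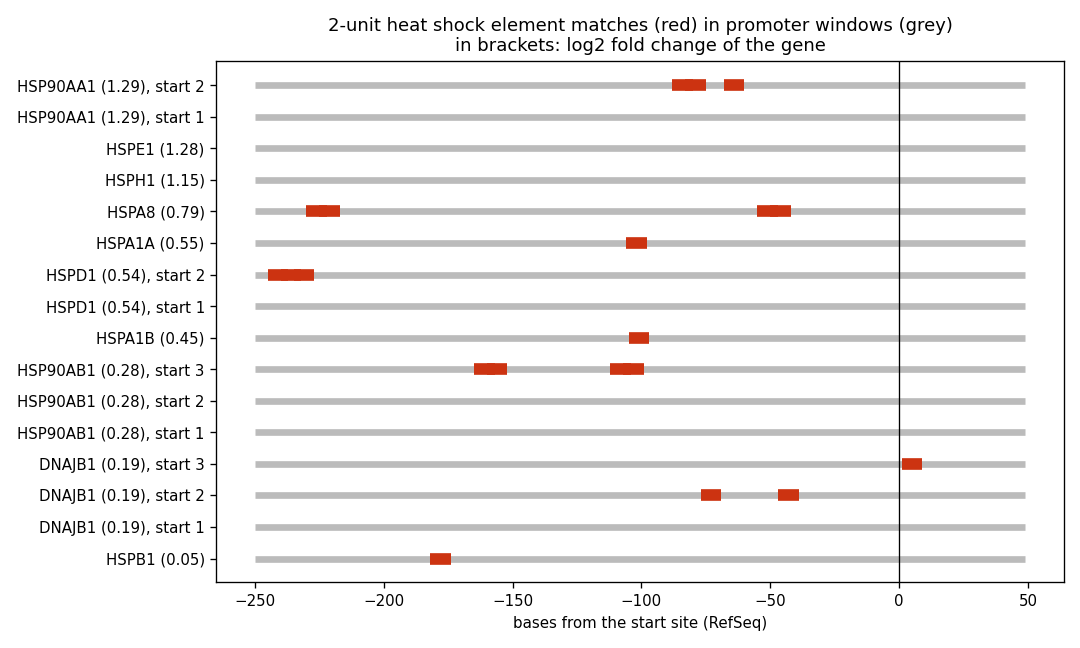
Positions of 2-unit heat shock element matches (red) in each RefSeq promoter window (grey) of the 10 genes. The horizontal axis is the distance in bases from the start site, and genes are ordered by their log2 fold change, given in brackets. HSP90AA1, at the top of the order, has 3 matches in a window, and HSPA8 has 4. HSPE1 and HSPH1, near the top of the order, have no match in their windows, and HSPB1, at the bottom, has 1. A link between matches and fold changes was not tested.

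FPKM, the unit of the deposited files, scales sequenced fragments by transcript length and library size, so levels can be compared between genes. The libraries listed 15649 to 16286 symbols, their FPKM summed to 596623 to 618389, and the steps between low values put their depth at roughly 7520000 to 8980000 fragments. Counting error alone then came to between 0.473% and 5.21% of a member's value. Within a group, r between 2 libraries was 0.985 to 0.991 across genes, which are not independent replicates. FOXD3, the targeted gene, was near the detection limit: its values were 0.152, 0.291 and 0.134 FPKM in siNC and 0, 0.0749 and 0 FPKM in siFOXD3, too low to check the labels. The labels' protocol speaks of retinas while the cell type label is A549. All 9 epithelial and A549 markers examined were present, KRT8 at a mean of 2059 FPKM in siNC. Of 10 photoreceptor markers none reached 1 FPKM in any library, and SAG, GNAT1, RCVRN and OPN1SW were at 0 in all. Of 8 leukocyte markers 4 reached 1 FPKM in some library. These were CD68, with means of 74.0 FPKM in siNC and 66.0 FPKM in siFOXD3, CD14 (2.92 and 1.25), LAPTM5 (2.06 and 0.21) and CORO1A (1.90 and 1.95). PTPRC had a mean of 0.227 FPKM in siNC and 0.194 FPKM in siFOXD3. The 8 leukocyte markers summed to 76.3 to 86.8 FPKM in siNC and 69.1 to 70.4 FPKM in siFOXD3. Most of that sum was CD68, and its part in the results was not tested. Of 8 fibroblast and endothelial markers 2 reached 1 FPKM, with sums of 6.40 to 7.83 FPKM in siNC and 5.01 to 5.57 FPKM in siFOXD3.

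In siFOXD3, 9 of the 10 heat shock protein genes rose and HSPB1 was not called. Together the 10 genes summed to 0.593%, 0.596% and 0.601% of all FPKM in the siNC libraries and to 1.01%, 0.987% and 0.997% in the siFOXD3 libraries. HSP90AA1 alone made up 49.4% of the summed difference of 2364 FPKM, HSPA8 18.8% and HSPE1 9.71%. The test was limma on log2(FPKM + 1) across all tested genes, with a call at a two-sided Benjamini-Hochberg adjusted p under 0.05. By that rule 65.9% of all tested genes were called in either direction. Of the 10 members 9 were called higher, where 27.2% of all tested genes were, and 0 were called lower, where 38.7% of tested genes were. Members were chosen with earlier results of these data known, so these shares describe the list and do not test it. HSPA1A and HSPA1B each count among the 9, although short reads cannot tell them apart well. Abundant genes were called higher more often than others, at 45.8% of the 1735 tested genes with a mean of 50 FPKM or more. That level was chosen after the values were seen and was reached by all members, the mean being taken over both groups. HSPH1, at means of 31.9 FPKM in siNC and 71.7 FPKM in siFOXD3, reached it only through siFOXD3. A log2 fold change of 1 or more was called for 3 members, HSP90AA1, HSPE1 and HSPH1, against 1.74% of all tested genes and 3.52% of those abundant ones. The median log2 fold change was 0.55 over the members and -0.08 over all tested genes. Groups did not overlap for 9 members, where 70.7% of all tested genes had groups that did not overlap in either direction and 29.6% had siFOXD3 above siNC. Each of these 9 had a two-sided exact permutation p of 0.1, which is the lowest value possible with 3 libraries in each group.

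**Figure D2:**
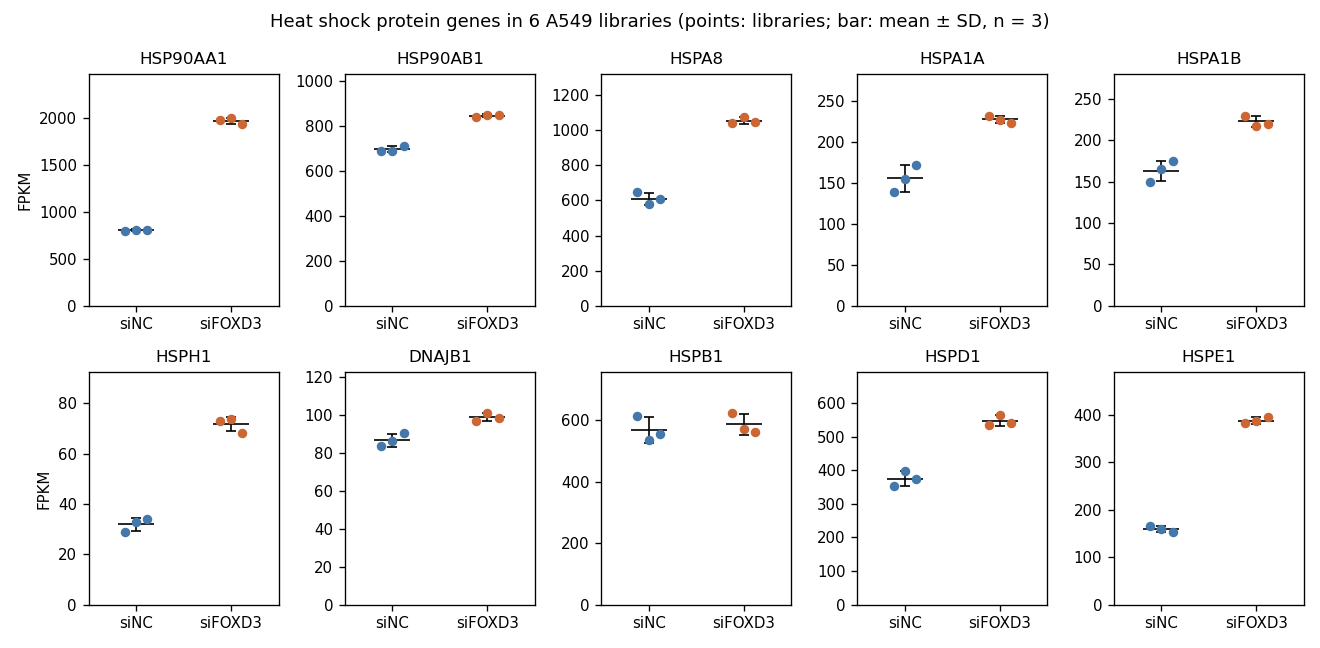
FPKM of each gene (vertical axes, from 0, each with its own scale) in the 3 siNC and 3 siFOXD3 libraries. Points are libraries and bars are the mean ± SD (n = 3); the groups are apart in every panel except that of HSPB1, where siNC spans 535 to 615 FPKM and siFOXD3 563 to 625 FPKM.

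HSP90, the chaperone of kinases and steroid receptors, has an inducible form, HSP90AA1, and a constitutive form, HSP90AB1. HSP90AA1 had 798, 810 and 812 FPKM in siNC (given here and below in the order of the replicate numbers) and 1978, 2001 and 1942 FPKM in siFOXD3. The lowest siFOXD3 library lay far above the highest siNC library, and the coefficient of variation was 0.926% within siNC and 1.52% within siFOXD3. The means were 807 ± 7.47 and 1974 ± 30 FPKM (SD, n = 3), 2.45 times as high, with a log2 fold change of 1.29 ± 0.03 (SE, limma, Benjamini-Hochberg adjusted p = 3.54e-09). Only 0.589% of tested genes had a log2 fold change as high or higher. HSP90AB1 stood at 687, 688 and 711 FPKM in siNC and at 838, 848 and 849 FPKM in siFOXD3. The 2 groups of HSP90AB1 did not overlap either, but the step between them was smaller. Its ratio was 1.21 and its log2 fold change 0.28 ± 0.04 (SE, limma, Benjamini-Hochberg adjusted p = 6.75e-05), which 22% of tested genes reached. The longest reading frames of both genes in GENCODE 29 were identical at 77.4% of aligned positions, and it names 4 pseudogenes after HSP90AA1 and 5 after HSP90AB1, which can share reads with them.

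The cytosolic HSP70 genes rose by different amounts. HSPA8, the constitutive HSP70 that also uncoats clathrin vesicles, was at 647, 577 and 607 FPKM in siNC and at 1040, 1077 and 1048 FPKM in siFOXD3. All siFOXD3 libraries were above all siNC libraries. The ratio of means was 1.73 and the log2 fold change 0.79 ± 0.05 (SE, limma, Benjamini-Hochberg adjusted p = 3.61e-07). HSPA1A, a heat-inducible HSP70 gene, was at 138, 154 and 172 FPKM in siNC and at 231, 226 and 223 FPKM in siFOXD3. Its neighbour HSPA1B was at 150, 165 and 175 FPKM in siNC and at 230, 218 and 220 FPKM in siFOXD3. In both genes siNC replicate 1 was the lowest library, and the siFOXD3 libraries lay closer together than the siNC libraries. The log2 fold changes were 0.55 ± 0.07 for HSPA1A and 0.45 ± 0.06 for HSPA1B (SE, limma, Benjamini-Hochberg adjusted p = 5.96e-05 and 7.12e-05).

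HSPA1A and HSPA1B cannot be told apart well by short reads. Their longest reading frames, 1926 bases each, were identical at 99.8% of positions. Each symbol also stood on 5 rows of every file, which were summed here; what the separate rows stand for is not stated in the files. In siNC replicate 1 the 5 rows of HSPA1A ran from 20.8 to 37.7 FPKM, and in siFOXD3 replicate 1 from 34.7 to 64.0 FPKM. The sum of both genes was 289, 319 and 347 FPKM in siNC and 461, 443 and 444 FPKM in siFOXD3, which did not overlap. The sum differed by 0.50 ± 0.06 in log2 units (SE; tested with limma, Benjamini-Hochberg adjusted p = 5.04e-05), a ratio of 1.41, and with the largest row of each symbol in place of the sum it was 0.51.

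Of the HSP70 partners, the exchange factor HSPH1 rose strongly and the co-chaperone DNAJB1 little. HSPH1, an HSP110 protein that drives nucleotide exchange on HSP70, was at 28.9, 32.7 and 34.0 FPKM in siNC and at 72.8, 73.8 and 68.3 FPKM in siFOXD3. It was the least abundant member in both groups, and its groups were far apart. The ratio was 2.25 and the log2 fold change 1.15 ± 0.07 (SE, limma, Benjamini-Hochberg adjusted p = 3.23e-07), reached by 1.03% of tested genes. DNAJB1, the HSP40 protein that hands substrates to HSP70 and stimulates its ATPase, was at 83.6, 85.9 and 90.3 FPKM in siNC and at 96.9, 101 and 98.5 FPKM in siFOXD3. The gap between its groups was small and no libraries overlapped. DNAJB1 was higher by 0.19 ± 0.05 in log2 units (SE; tested with limma, Benjamini-Hochberg adjusted p = 0.00553), a ratio of 1.14. With quantile normalization DNAJB1 was at 0.12 and no longer called (limma, Benjamini-Hochberg adjusted p = 0.0536).

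HSPB1, the small heat shock protein also known as HSP27, was among the abundant members and showed no called difference. It was at 615, 535 and 555 FPKM in siNC and at 625, 572 and 563 FPKM in siFOXD3. The groups overlapped, and replicate 1 was the highest library in both. HSPB1 differed by 0.05 ± 0.06 in log2 units (SE; tested with limma, Benjamini-Hochberg adjusted p = 0.519), with a 95% interval from -0.09 to 0.18, and a two-sided exact permutation p of 0.5. Its sign moved with the scaling: HSPB1 was at 0.16 with median-of-ratios scaling (limma, Benjamini-Hochberg adjusted p = 0.0474), which calls it higher, and at -0.07 with quantile normalization (adjusted p = 0.232).

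The mitochondrial chaperonin pair rose, its lid more than its chamber. HSPD1, which forms the chamber, was at 353, 398 and 373 FPKM in siNC and at 535, 565 and 540 FPKM in siFOXD3. HSPE1, the lid, was at 166, 159 and 153 FPKM in siNC and at 382, 387 and 396 FPKM in siFOXD3. Neither gene had overlapping groups. HSPD1 was 1.46 times as high, 0.54 ± 0.05 on the log2 scale, and HSPE1 2.44 times, 1.28 ± 0.05 on that scale (SE; tested with limma, Benjamini-Hochberg adjusted p = 6.64e-06 and 2.20e-08). The pair shares the stretch between head-to-head starts printed above, and the ratio of the pair is given below. GENCODE 29 names 17 pseudogenes after HSPD1, 26 after HSPE1 and 17 after HSPA8, so the levels of these genes are uncertain to the extent that reads were shared. The readthrough transcript HSPE1-MOB4 was listed at 0.0116 FPKM or less in every library.

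**Figure D3:**
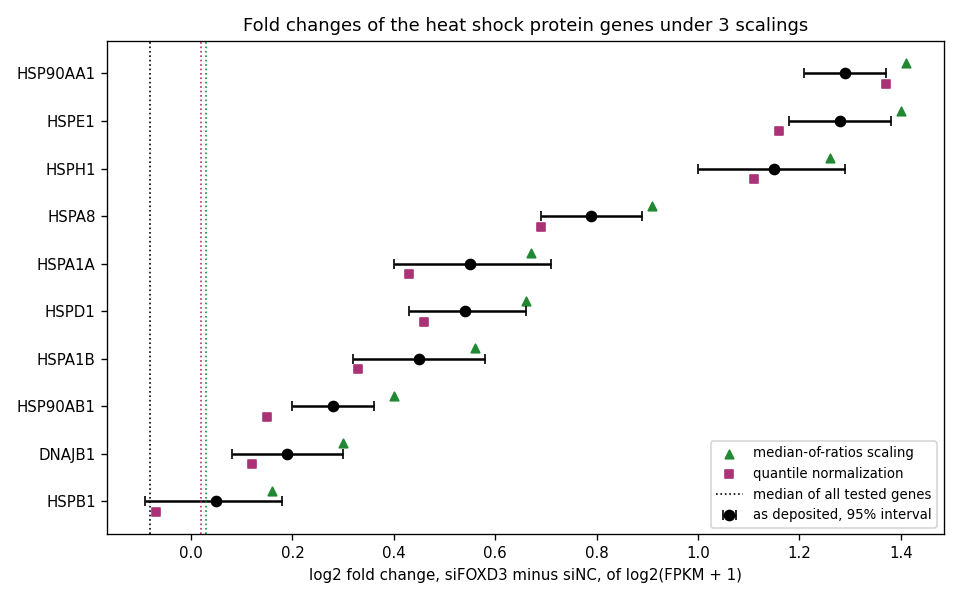
Log2 fold change (siFOXD3 minus siNC, horizontal axis) of each gene as deposited, with its 95% limma interval, and after 2 other scalings between libraries. Dotted lines mark the median of all tested genes under each scaling; HSP90AA1, HSPE1 and HSPH1 lie above 1 under all 3 scalings and HSPB1 changes sign.

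The scaling shifts every gene. The all-gene median moved from -0.08 as deposited to 0.03 with median-of-ratios scaling and 0.02 with quantile normalization, and the share of calls that were higher moved from 41.3% to 53.1% and 51.9%. With median-of-ratios scaling 10 members were called higher, where 35.3% of tested genes were, and with quantile normalization 8, where 33.5% were. Relative to the all-gene median, the log2 fold changes as deposited were 1.37 for HSP90AA1, 1.36 for HSPE1, 1.23 for HSPH1, 0.87 for HSPA8, 0.63 for HSPA1A, 0.62 for HSPD1, 0.53 for HSPA1B, 0.36 for HSP90AB1, 0.27 for DNAJB1 and 0.12 for HSPB1. In bulk RNA, more cells with a high level and more RNA per cell cannot be told apart.

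Partner genes changed unequally, which ratios within a library show without any scaling between libraries. The ratio of HSP90AA1 to HSP90AB1 was 1.16, 1.18 and 1.14 in siNC and 2.36, 2.36 and 2.29 in siFOXD3. Both forms were thus near each other in the control libraries, and the inducible form stood well above the constitutive form in the siFOXD3 libraries. HSPE1 to HSPD1 was 0.470, 0.399 and 0.409 in siNC and 0.713, 0.685 and 0.734 in siFOXD3. Measured against HSPA8, the heat-inducible HSPA1A and HSPA1B together went the other way, from 0.446, 0.553 and 0.571 in siNC to 0.443, 0.412 and 0.423 in siFOXD3. These ranges are separate only narrowly, since siNC replicate 1 and siFOXD3 replicate 1 almost touch. DNAJB1 to HSPA8 was also lower in siFOXD3, at 0.142 ± 0.0113 in siNC and 0.0936 ± 0.000375 in siFOXD3 (SD, n = 3). HSPH1 to HSPA8 was higher, at 0.0524 ± 0.00675 in siNC and 0.0679 ± 0.00248 in siFOXD3. The ratio of HSPA1A to HSPA1B was 0.948 ± 0.0334 in siNC and 1.02 ± 0.0163 in siFOXD3. Short reads cannot tell these genes apart well, so this ratio may reflect how shared reads were split between them. In each of these 6 ratios, chosen with the values known, the groups did not overlap, and the two-sided exact permutation p was 0.1, the smallest possible, also after Benjamini-Hochberg adjustment over the 6. With the largest row of each symbol in place of the sum, the ratio of HSPA1A and HSPA1B to HSPA8 and that of HSPA1A to HSPA1B each had an exact permutation p of 0.2.

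**Figure D4:**
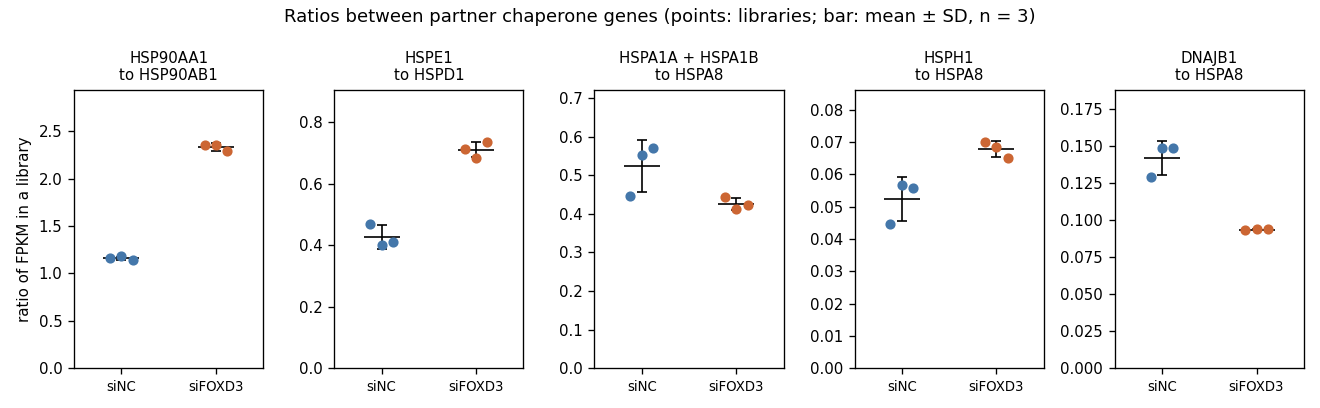
Ratios of FPKM between partner genes within each library (vertical axes, from 0). Points are libraries and bars the mean ± SD (n = 3 per group); the first panel goes from a mean of 1.16 to 2.34 and the third shows the narrowest gap, between 0.446 and 0.443.

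The order of the members by level changed accordingly. In siNC it was HSP90AA1, HSP90AB1, HSPA8, HSPB1, HSPD1, HSPA1B, HSPE1, HSPA1A, DNAJB1 and HSPH1. HSPA8 and HSPB1, HSPA1B and HSPE1, and HSPE1 and HSPA1A were neighbours whose libraries overlapped. In siFOXD3 the order was HSP90AA1, HSPA8, HSP90AB1, HSPB1, HSPD1, HSPE1, HSPA1A, HSPA1B, DNAJB1 and HSPH1. There only HSPB1 with HSPD1 and HSPA1A with HSPA1B overlapped among neighbours. Every member was above 86.6% of the tested genes in mean level, HSPH1 being the lowest in this respect and HSP90AA1, at 99.4%, the highest.

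The genes that work with these chaperones were read from 10 lists of the chaperone system, the members left out; some genes stand in more than one list. For each count below, 27.2% of all tested genes were called higher and 38.7% lower. Among tested genes with a mean of 50 FPKM or more, 45.8% were called higher. The lists were chosen with earlier results of these data known and were not matched for level. Of 20 HSP90 relatives and co-chaperones, 14 rose and 1 fell, while 5 had no call. Their median log2 fold change was 0.45 against -0.08 for all tested genes. AHSA1, which activates the HSP90 ATPase, rose from 152 ± 7.15 to 321 ± 11.3 FPKM (SD, n = 3; log2 fold change 1.08, limma, Benjamini-Hochberg adjusted p = 7.51e-08). CHORDC1, an HSP90-binding protein, rose from 14.2 ± 1.21 to 34.2 ± 1.43 FPKM (1.21, adjusted p = 3.55e-07). Of 22 HSP40 co-chaperones 20 were tested, 13 rose and 2 fell, with a median of 0.29. The ribosome-associated DNAJC2 rose from 12.6 ± 2.57 to 30.8 ± 1.55 FPKM (1.24), and DNAJA1, a major HSP40 protein of the cytosol, from 75.2 ± 3.23 to 154 ± 2.40 FPKM (1.03). DNAJB9, an HSP40 protein of the endoplasmic reticulum, fell from 11.6 ± 2.42 to 5.21 ± 0.175 FPKM (-1.0, limma, Benjamini-Hochberg adjusted p = 4.25e-05). Of 12 nucleotide exchange and linker factors 7 rose and 2 fell, with a median of 0.36, and BAG2, which binds HSP70, rose from 7.75 ± 1.19 to 15.2 ± 0.189 FPKM (0.90). HSPBP1, an exchange factor of HSP70, rose from 61.0 ± 6.52 to 105 ± 3.65 FPKM (0.78). Of the other HSP70 and HSP110 genes 9 of 13 were tested, 6 rose and 1 fell, with a median of 0.26. HSPA14, a ribosome-associated HSP70, rose from 7.70 ± 0.615 to 17.0 ± 0.988 FPKM (1.05). HSPA5, the HSP70 of the endoplasmic reticulum, rose from 206 ± 33.8 to 309 ± 3.48 FPKM (0.60), and HSPA13 fell from 19.2 ± 3.63 to 11.2 ± 0.0969 FPKM (-0.71).

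Beside HSPD1 and HSPE1, 17 genes for other mitochondrial chaperones and proteases were tested, of which 9 rose and 2 fell, the median being 0.17. HSPA9, the mitochondrial HSP70 (chosen after its values were seen), went from 160 ± 7.02 to 179 ± 3.70 FPKM (0.17, limma, Benjamini-Hochberg adjusted p = 0.0105), but with quantile normalization it was at 0.05 and not called (adjusted p = 0.438), and without siFOXD3 replicate 2 at 0.15 and not called (adjusted p = 0.0511). GRPEL1, an exchange factor of HSPA9, rose from 17.1 ± 2.18 to 34.6 ± 1.76 FPKM (0.99), while GRPEL2 fell from 19.2 ± 1.14 to 15.4 ± 0.524 FPKM (-0.30). PHB, a prohibitin of the inner membrane, rose from 85.7 ± 8.04 to 144 ± 3.18 FPKM (0.74), while PHB2 was not called (0.07). Both GRPEL2 and PHB2 were chosen after their values were seen, and the alternatives were not read for them. The matrix protease LONP1 fell from 41.5 ± 2.61 to 29.6 ± 0.682 FPKM (-0.47). Of 14 genes for the cytosolic chaperonin and prefoldin, 8 rose and 2 fell (median 0.35); these counts were 10 and 2 with median-of-ratios scaling and 7 and 2 with quantile normalization. The chaperonin subunit CCT5 rose from 235 ± 8.44 to 450 ± 5.37 FPKM (0.94), and the subunits CCT2 and TCP1 rose by 0.94 and 0.90 on the log2 scale. Among 14 endoplasmic reticulum chaperones 12 rose and 1 fell (median 0.71), and HSP90B1, the HSP90 of that compartment, rose from 242 ± 26.2 to 518 ± 6.96 FPKM (1.10). CRELD2, of the same compartment, rose from 14.4 ± 1.29 to 31.7 ± 1.06 FPKM (1.09), and the gene that fell was DNAJB9, at -1.0. The member HSP90AA1 rose by 1.29 on the same scale; no difference between lists was tested.

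Few small heat shock proteins other than HSPB1 were expressed. Of 9 listed, 3 passed the filter on low values, 0 rose and 2 fell (1 rose with median-of-ratios scaling): HSPB8, which works with BAG3, went from 20.9 ± 0.376 to 15.3 ± 0.768 FPKM (-0.43, limma, Benjamini-Hochberg adjusted p = 0.000143) and the crystallin CRYAB from 2.55 ± 0.537 to 1.49 ± 0.370 FPKM (-0.51, adjusted p = 0.00972). With quantile normalization CRYAB was at -0.23 and no longer called (adjusted p = 0.177). The remaining tested gene, HSPB11, was the most abundant of the list, with means of 94.4 ± 1.95 FPKM in siNC and 99.0 ± 1.57 FPKM in siFOXD3. It was not called (0.07, limma, Benjamini-Hochberg adjusted p = 0.199). Of 8 tested heat shock factors and their regulators 2 rose (25%, near the 27.2% of all tested genes) and 4 fell, with a median of -0.23. HSF4, a heat shock factor of the lens, fell from 3.36 ± 0.355 to 1.36 ± 0.220 FPKM (-0.89). With a pseudocount of 5 FPKM HSF4 was at -0.39 and CRYAB at -0.22, both still called. The translation elongation factor EEF1A1 fell from 5406 ± 419 to 2996 ± 60.3 FPKM (-0.85), and the acetyltransferase EP300 rose from 12.1 ± 0.762 to 17.5 ± 0.313 FPKM (0.49). HSF1 itself, named after its values were seen, was at 42.3, 45.8 and 41.6 FPKM in siNC and at 42.3, 40.8 and 39.0 FPKM in siFOXD3, with overlapping groups (-0.08, adjusted p = 0.217). Its value was 0.03 with median-of-ratios scaling and -0.13 with quantile normalization, not called with either. These are RNA levels, and the activity of the HSF1 protein was not measured.

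Among 18 heat-inducible genes outside the members 15 were tested, 11 rose and 2 fell, with a median of 0.59. CHORDC1, AHSA1 and DNAJA1, given above, had the largest changes among them. A pair of further heat-inducible genes was looked at after their values were seen. BAG3, a co-chaperone of HSP70 with HSPB8, was at 40.0, 35.8 and 34.6 FPKM in siNC and at 37.7, 39.3 and 38.7 FPKM in siFOXD3, and was not called (0.07, limma, Benjamini-Hochberg adjusted p = 0.353). With median-of-ratios scaling BAG3 was at 0.18 and called (adjusted p = 0.035), and without siNC replicate 1 at 0.13 and called (adjusted p = 0.0421). HSPA6, an HSP70 gene known for being induced by severe stress, was at 0.289, 1.05 and 1.96 FPKM in siNC and at 0.276, 0.255 and 0.331 FPKM in siFOXD3. It was under the filter on low values, its groups overlapped, and it was not called in the fit with no filter (adjusted p = 0.0815).

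**Figure D5:**
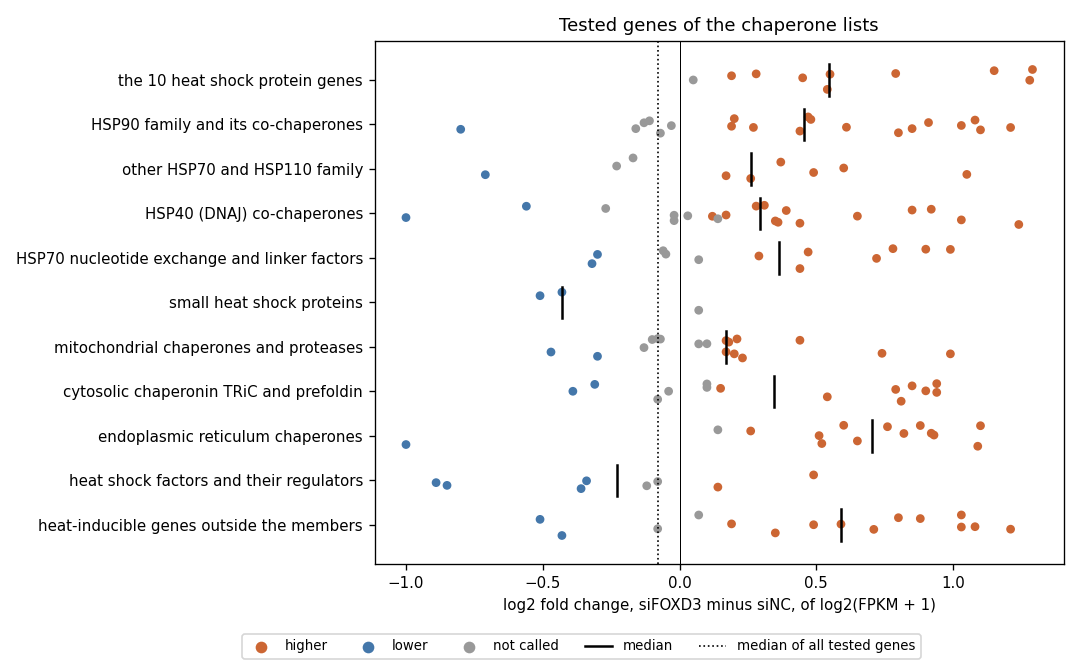
Log2 fold change (siFOXD3 minus siNC, horizontal axis) of each tested gene of the 10 lists, with the 10 heat shock protein genes on top. Points are genes, coloured by call, and black ticks are medians. The top median is 0.55, that of endoplasmic reticulum chaperones is 0.71 and that of the 3 tested small heat shock proteins is -0.43.

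Genes with the pattern most like 3 of the members over the 6 libraries were found by Pearson's r of log2(FPKM + 1), as a description only, since a difference between groups alone gives a high r over so few libraries. For HSPD1 these were TFAM (r = 0.9986), DDX55 (0.9986) and DDX21 (0.9985), and 157 tested genes outside the members had r above 0.99. TFAM, which packages mitochondrial DNA, was at 24.9, 30.8 and 26.8 FPKM in siNC and at 45.4, 48.8 and 46.1 FPKM in siFOXD3. As in HSPD1, replicate 2 was the highest library of each group, a likeness that choosing the gene by its r favours. For HSPH1 they were PAK1IP1 (0.9995), UMPS (0.9990) and ATP2A2 (0.9989), with 205 genes above 0.99. For HSP90AA1 they were SNORA1 (0.9998), CCDC137 (0.9997) and C11orf51 (0.9997), with 422 genes above 0.99. SNORA1, a small nucleolar RNA, was at 788, 752 and 675 FPKM in siFOXD3. It was at 0 in all siNC libraries, a value also given to symbols absent from a file.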

How the data were processed

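RNA from A549 cells was sequenced in 6 libraries, 3 labelled siNC and 3 labelled siFOXD3, with groups and replicate numbers from the titles. The authors deposited 1 table of FPKM per library (unit per the file headers). TopHat, Cufflinks and build hg19 stand in the list per the submitters' processing notes; for versions, annotation and strand handling the sources used here give nothing. Rows of 1 symbol in a file were summed (333 symbols had several), and absent symbols were set to 0. Depth was inferred from value steps of low genes that have a single GENCODE 29 transcript (700 to 4000 bases), assuming fragments of 150 bases. On 6 simulated libraries, with lengths scattered at random, the estimate was within 4.20% of the truth. The simulation held no error in the assumed fragment length or in the annotation, so it does not bound the error of the real depths. A member's counting error used that depth and its coding length, and covers counting error only.

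Tests used limma 3.58.1 in R 4.3.3 (trend and robust, group as the only term) on log2(FPKM + 1), a scale that understates changes of low genes, over 12555 genes with at least 1 FPKM in at least 3 libraries, with Benjamini-Hochberg adjustment. The same fit was tested on simulated data for these 12555 genes with 200 changed. Recovery was 48% for changes of 0.25, 100% for 0.5 and for 1, and 98% for -1, and 8 unchanged genes were called. In the real data 8278 genes were called, so the simulated recovery and number of false calls need not hold for them. Python 3.11.15, scipy 1.17.1 and matplotlib 3.10.9 served the other steps. Members and lists were chosen with earlier results of these data known. Named beside the members were up to 3 called genes per list with the largest change (the 2 most abundant where fewer than 2 were called), and the 3 genes most like HSPD1, HSPH1 and HSP90AA1. Alternatives were other pseudocounts, filters, scalings, limma settings, row handling, a replicate block and leaving out each library.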

Additional observations from a re-analysis of the deposited data

How the results depend on the processing

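Calls and direction held in 161 of 165 recomputed member values (10 genes and the HSPA1A and HSPA1B sum under 15 alternatives). The exceptions were DNAJB1, at 0.12 and not called with quantile normalization, and HSPB1, at -0.07 with quantile normalization, -0.00 without siFOXD3 replicate 1 (-0.00 to 0.10 over the single libraries left out) and 0.16 and called with median-of-ratios scaling. Members called higher numbered 9 under every alternative but those 2 scalings (10 with median-of-ratios, 8 with quantile), and 0 were called lower under any; the ranges over single libraries left out were 9 to 9 members and 7278 to 7974 genes called. Of 343 recomputed values of 23 other named genes, 342 kept their call, CRYAB with quantile normalization being the exception. That count holds the genes named by rule from the lists; of the genes named after their values were seen, HSPA9 lost its call with quantile normalization and without siFOXD3 replicate 2, and BAG3 gained one with median-of-ratios scaling and without siNC replicate 1. CRYAB and HSF4 could not be tested with the 5 FPKM filter. All 42 recomputed ratio values kept their direction. Beside HSPB1, the members that moved by over 1.5 times from their value as deposited were HSP90AB1 (0.15 to 0.40 over the alternatives) and DNAJB1 (0.12 to 0.30); HSPA1A ranged from 0.43 to 0.67, HSPA1B from 0.33 to 0.56 and their sum from 0.37 to 0.62. With a replicate block 8172 genes were called in place of 8278, and no member changed its call. Deviations of same-numbered libraries correlated at 0.06, 0.16 and 0.11, so the numbers were not taken as pairs, although each of the 6 libraries correlated best with its own number, a hint from the data only. With HSPE1 at the fewest fragments, counting error alone reached 5.21% of a value in 1 library, so differences of that size in 1 library cannot be resolved.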
